A study of Mus musculus with 24 samples.

Results

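The genes described here are 35 chaperones, folding enzymes, degradation factors and stress sensors of the endoplasmic reticulum (ER), out of 55416 gene rows in the count table. They were chosen by name as ER folding and unfolded protein response genes. Each name matched a row, and all 35 passed the filter on low counts, so every member was among the 17736 genes tested. By role, 6 are chaperones of the ER lumen, 8 are co-chaperones or induced luminal proteins, 4 are disulfide isomerases, 10 belong to ER-associated degradation, 4 are the stress sensors with Xbp1, and 3 belong to the translocon.

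Poly(A) RNA was sequenced from the cerebellum of 24 neonatal C57BL/6J mice. The 12 Ethanol animals were gavaged daily with 4 g/kg ethanol mixed into intralipid, starting on postnatal day (P) 4, in a model of alcohol exposure late in pregnancy. The 12 Control animals received the same intralipid with water in place of ethanol. Animals of both groups were perfused and their cerebella taken 24 hours after the final dose, at P5 or at P6. Treatment and an animal number are on the labels, while age, sex and litter are not tied to animals, so both ages are held together in every value, and an effect of 1 dose cannot be told apart from that of a repeated dose. Sorted by these numbers, the animals form 6 runs of 4, each with 2 Ethanol and 2 Control animals. The study's methods say that animals came from 6 litters, 3 for each age, with 2 Ethanol and 2 Control pups, a male and a female of each, from every litter. A run thus has the makeup of a litter, but no source used here ties the runs or the animals to litters, so litter, age and run cannot be told apart.

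Proteins that enter the secretory pathway fold in the ER with the help of Hsp70 and Hsp90 family chaperones, lectin chaperones and enzymes that form disulfide bonds. When unfolded proteins accumulate, the sensors IRE1 (Ern1), PERK (Eif2ak3) and ATF6 are released from the chaperone BiP (Hspa5). IRE1 splices Xbp1 mRNA, ATF6 is cleaved into a transcription factor, and PERK slows translation while raising ATF4. Spliced XBP1 and cleaved ATF6 induce chaperone and degradation genes through the ER stress response element (ERSE), and ATF4 induces a separate set of amino acid and stress genes. Ethanol is known to disturb ER folding in liver and in developing brain.

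Libraries held 26982564 to 38804942 counts. Levels are given as CPM, a gene's counts relative to its library's total after TMM scaling. Each log2 fold change is Ethanol over Control from edgeR's quasi-likelihood test. Its standard error (SE) was derived as the absolute log2 fold change divided by the square root of the test's F. The 95% intervals were built from the SE with a t distribution of 22 degrees of freedom. A gene is said to be higher or lower where its p, adjusted over all 17736 genes, was under 0.05. Granule cell and Purkinje cell markers were present throughout, and the forebrain markers Emx1, Emx2 and Fezf2 were at most 0.193 CPM in any animal. Choroid plexus RNA was nearly missing from 4 libraries, Ethanol X4568 and X4766 and Control X4761 and X4770, in which Ttr was at 1.15 to 3.57 CPM. In bulk tissue, fewer cells of a type and less RNA per cell cannot be told apart.

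The ERSE is shown first because it is the sequence through which chaperone genes are known to be induced together. It was searched as CCAAT, then 9 bases of any kind (N), then CCACG, on both strands of RefSeq promoter windows (assembly GRCm38.p6, 250 bases before to 50 after each gene's start; the count files use GRCm39). A window was matched for 29 of the 35 members, not for Atf6, Sec61a1, Hyou1, Manf, Derl1 or Hspa13. The ERSE letters were present in 9 of these 29 windows (31.0%), against 37 of 27025 windows over all genes (0.137%). Each line below gives 1 site with 8 bases on either side, read 5′ to 3′ in the direction of the element, with its CCAAT and CCACG letters in capitals.
Hspa5, chr2:34772017-34772051, + strand gene: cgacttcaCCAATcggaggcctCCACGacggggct
Calr, chr8:84847067-84847101, - strand gene: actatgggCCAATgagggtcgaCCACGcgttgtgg
Hsp90b1, distal site, chr10:86705630-86705664, - strand gene: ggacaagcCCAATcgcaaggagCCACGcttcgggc
Hsp90b1, proximal site, chr10:86705525-86705559, - strand gene: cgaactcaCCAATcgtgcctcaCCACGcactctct
Canx, chr11:50325792-50325826, - strand gene: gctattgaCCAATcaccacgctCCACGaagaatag
Pdia6, chr12:17266483-17266517, + strand gene: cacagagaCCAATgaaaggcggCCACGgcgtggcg
Dnajc3, chr14:118937819-118937853, + strand gene: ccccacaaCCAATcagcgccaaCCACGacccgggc
Creld2, chr15:88819512-88819546, + strand gene: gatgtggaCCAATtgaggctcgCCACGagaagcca
Syvn1, chr19:6046524-6046558, + strand gene: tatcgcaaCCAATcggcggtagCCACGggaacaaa
Derl3, chr10:75893234-75893268, + strand gene: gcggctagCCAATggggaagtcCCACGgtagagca

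The elements ran in the direction of the gene in Hspa5, Canx, Pdia6, Dnajc3, Syvn1 and the distal site of Hsp90b1, and in the opposite direction in Calr, Creld2, Derl3 and the proximal site of Hsp90b1. Counted as bases before the gene's start, they lay between 212 (the distal site of Hsp90b1) and 26 (Syvn1). In the Hspa5 promoter the site is 65 to 47 bases before the start. It is shown within 150 bases of that promoter (chr2:34771940-34772089, + strand), since Hspa5 is the gene against which the other chaperones are set further on.
Hspa5 promoter: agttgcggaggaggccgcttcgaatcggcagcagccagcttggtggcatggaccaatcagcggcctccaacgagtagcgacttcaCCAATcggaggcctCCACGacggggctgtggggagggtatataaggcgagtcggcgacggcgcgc

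The shorter second form of the element (ERSE-II), searched as ATTGG, 1 base of any kind and CCACG, was present in 2 of the 29 windows, those of Herpud1 and Dnajb11, against 12 of 27025 windows over all genes (0.0444%). Its 3′ letters are the CCACG that the ERSE also holds. The Herpud1 site is shown because Herpud1 had the highest log2 fold change of the 35 members. It lies 52 to 42 bases before the start, and its ATTGG and CCACG letters are in capitals.
Herpud1, chr8:94386369-94386395, + strand gene: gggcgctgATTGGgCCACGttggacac

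The letters CCACG alone were in 24 of the 29 windows, against 35.5% of all windows. The UPR element TGACGTGG (0.714% of all windows) and the ATF4-type element TGATGNAAT (1.08%) were in none of the 29. A match to letters is not evidence of binding.

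Most of these genes differed little between Ethanol and Control animals. Of the 35 members, 4 were higher (Herpud1, Dnajc14, Xbp1 and Edem1), 1 was lower (Ssr1) and 30 did not pass the test. Over all genes tested, 14.9% passed, with 9.07% higher and 5.8% lower, and the members' share was 14.3%. The members' median log2 fold change was -0.01, and that of all genes was also -0.01. The 30 that did not pass lay between -0.12 (Sdf2l1) and 0.11 (Ern1). Cell type markers also differed, with 4 of 10 astrocyte and Bergmann glia markers higher and 2 lower, 4 of 10 microglia markers higher and 1 lower, 2 of 10 granule lineage markers higher and 1 lower, and 4 of 10 pericyte and meningeal, 4 of 10 endothelial and 3 of 10 Purkinje cell markers lower (1 endothelial marker was higher). Their part in the members' differences was not tested. The plot of fold changes by role shows the 5 members past the test against the other 30.

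**Figure D1:**
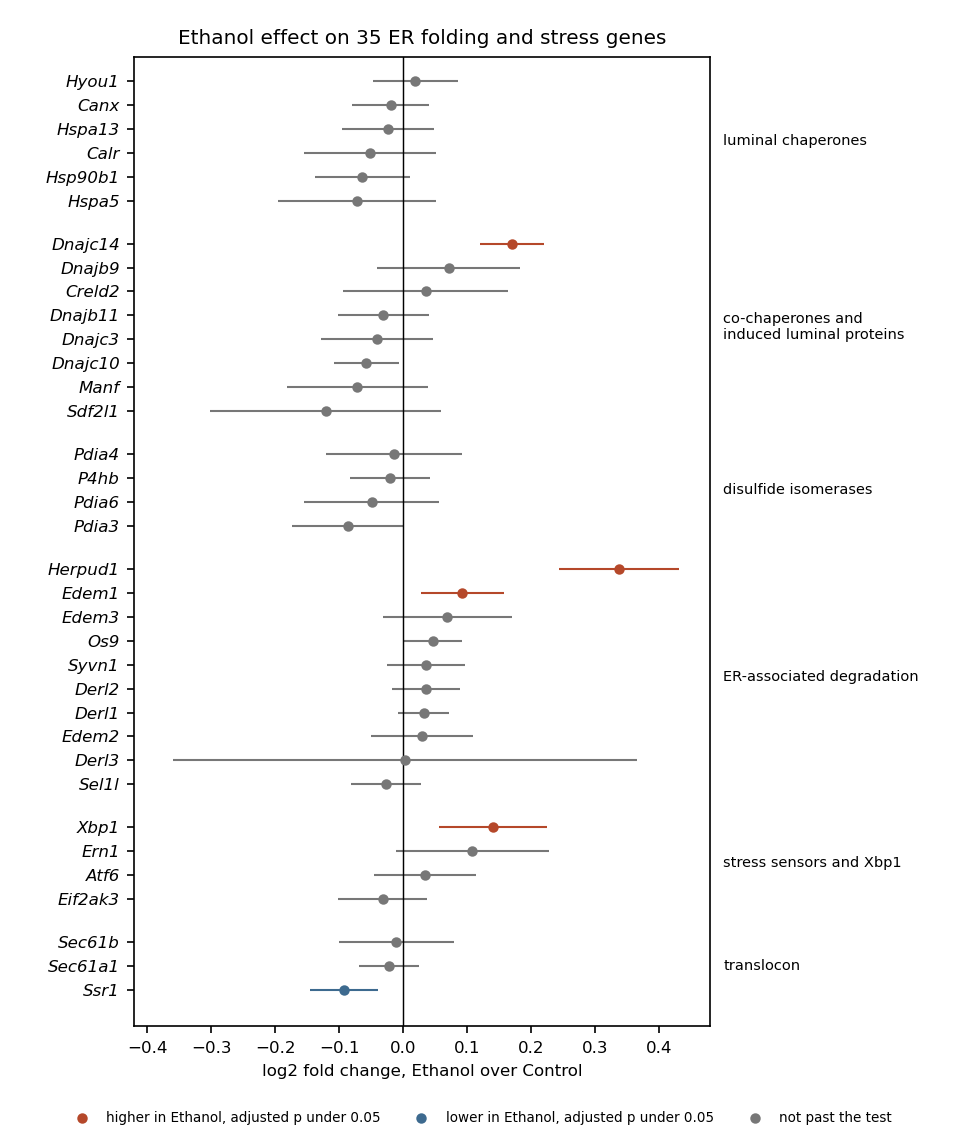
Log2 fold change of each of the 35 genes, Ethanol over Control (x axis), grouped by role, with 95% confidence intervals derived from the edgeR test (12 animals per group). Herpud1 stands highest at 0.34, and the 6 luminal chaperones and 4 disulfide isomerases all have intervals that include 0.

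None of the 6 luminal chaperones passed the test. Hspa5 encodes BiP, the Hsp70 of the ER lumen and the keeper of the stress sensors. Its level was 255, 325 and 415 CPM (lowest, median and highest) in Ethanol animals, against 322, 344 and 390 CPM in Control animals. The Ethanol animals reached both lower and higher than any Control animal, with 5 below the lowest Control and 2 above the highest. The log2 fold change was -0.07 (SE 0.06, 95% interval -0.20 to 0.05, adjusted p = 0.461).

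The other luminal chaperones showed changes as small as that of Hspa5, or smaller. Hsp90b1 (GRP94, the Hsp90 of the ER) differed by -0.06 on the log2 scale (SE 0.04, adjusted p = 0.249). Calr and Canx, the lectin chaperones that hold glycoproteins during folding, had values of -0.05 (SE 0.05) and -0.02 (SE 0.03). Hyou1, a large Hsp70 relative that exchanges nucleotide on BiP, was at 0.02 (SE 0.03), and Hspa13, a small Hsp70 relative, at -0.02 (SE 0.03). The adjusted p of these last 4 lay between 0.544 and 0.754. Levels per kilobase of exon (GENCODE M21 lengths) averaged 190 CPM for Calr in Ethanol animals and 197 CPM in Control animals, the highest of the 35, and 78.4 and 82.4 CPM for Hspa5.

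Among the 8 co-chaperones and induced luminal proteins, Dnajc14 was higher. It encodes a J-domain protein of the ER membrane known for its part in receptor export. Its level was 71.8, 76.9 and 80.9 CPM in Ethanol animals, against 64.8, 68.3 and 70.5 CPM in Control animals. Each of the 12 Ethanol animals lay above every Control animal, a separation found upward in 0.124% of all genes tested. The log2 fold change was 0.17 (SE 0.02, adjusted p = 5.30e-05), and the Ethanol mean was higher in 6 of 6 runs. In GENCODE M21, 17.0% of its exon bases lie opposite Ormdl2 (log2 fold change -0.10, adjusted p = 0.288) and 2.10% opposite Tmem198b, which was itself higher at 0.15 (adjusted p = 0.00156). The strand setting of the counting is not given in the sources used here, so reads in those stretches cannot be told apart. In all, 11 of the 35 members share exon bases with another gene, and Herpud1, Xbp1, Edem1, Ssr1 and Hspa5 share none.

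The other 7 genes of this group did not pass. Sdf2l1, a luminal partner of BiP complexes and a classic stress-induced gene, was at 8.22, 11.2 and 17.0 CPM in Ethanol animals and 10.3, 12.3 and 14.5 CPM in Control animals, with the Ethanol animals reaching further both ways. Its log2 fold change was -0.12 (SE 0.09, adjusted p = 0.387). Manf, a secreted stress-induced survival factor, was at -0.07 (SE 0.05), and Creld2, another secreted stress-induced protein, at 0.04 (SE 0.06). Of the J-domain co-chaperones of BiP, Dnajb9 was at 0.07 (SE 0.05), Dnajb11 at -0.03 (SE 0.03) and Dnajc3 at -0.04 (SE 0.04). Dnajc10, which reduces disulfides of proteins bound for degradation, came nearest to the threshold in this group, at -0.06 (SE 0.02, adjusted p = 0.111). It passed only when Control X4770 was left out (adjusted p = 0.0475), and Manf only without Ethanol X4673 (0.0397) or without the whole second run (0.0275). Manf shares 4.14% of its exon bases with Dcaf1 on the opposite strand, which was itself higher (log2 fold change 0.17, adjusted p = 0.000512).

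The 4 disulfide isomerases had log2 fold changes of -0.01 (Pdia4, SE 0.05), -0.02 (P4hb, SE 0.03), -0.05 (Pdia6, SE 0.05) and -0.09 (Pdia3, SE 0.04), and none passed. P4hb is the archetypal isomerase, and Pdia4 and Pdia6 act in the BiP complex. Pdia3 is the isomerase that works with Calr and Canx on glycoproteins. It was at 226, 262 and 307 CPM in Ethanol animals and 259, 286 and 304 CPM in Control animals. In 5 Ethanol animals it was below the lowest Control value, yet in 2 it was above the highest. The adjusted p was 0.179 over the 24 animals and 0.0428 with the run of animal numbers as a term, and it was 0.0447 without the second run.

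ER-associated degradation held the largest rise of the set. Herpud1 encodes a membrane protein that organises the degradation complex around the ligase Hrd1, and its transcript is known to be induced by all 3 arms of the stress response. It was at 37.2, 45.5 and 54.9 CPM in Ethanol animals, against 34.1, 36.6 and 38.9 CPM in Control animals. In 11 of 12 Ethanol animals the value was above every Control value, and the exception was Ethanol X4674, at 37.2 CPM. The log2 fold change was 0.34 (SE 0.05, adjusted p = 3.07e-05), a level 26.3% higher, and it was higher in 6 of 6 runs.

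Edem1, a mannosidase-like protein that extracts misfolded glycoproteins from the folding cycle, was higher by a small margin. It was at 35.03, 38.4 and 42.1 CPM in Ethanol animals and 34.1, 36.4 and 39.5 CPM in Control animals. The groups overlapped, with 4 Ethanol animals above every Control. The Ethanol mean was higher in 5 of 6 runs, with a log2 difference of -0.04 in the fifth. The log2 fold change was 0.09 (SE 0.03, adjusted p = 0.0458). This call was kept in only 7 of 24 fits that left out 1 animal (those without Ethanol X4673, X4683, X4760 or X4765 or Control X4697, X4761 or X4762), with adjusted p of 0.0283 to 0.106, while the log2 fold change stayed between 0.08 and 0.10.

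The other 8 degradation genes did not pass. Os9, a lectin that hands glycoproteins to the ligase, exceeded the median of the Controls in each of the 12 Ethanol animals, at 137, 141 and 153 CPM, against 131, 137 and 146 CPM in Control animals (log2 fold change 0.05, SE 0.02, adjusted p = 0.157). Syvn1, the ligase Hrd1, was at 0.04 (SE 0.03), and its partner Sel1l at -0.03 (SE 0.03). The mannosidase-like Edem2 and Edem3 were at 0.03 (SE 0.04) and 0.07 (SE 0.05). Of the derlins, membrane proteins of the export channel, Derl1 was at 0.03 (SE 0.02) and Derl2 at 0.04 (SE 0.03), with 2.87% of the Derl2 exon bases opposite Mis12, which was itself higher (0.26, adjusted p = 0.00118). Derl3 was barely expressed, averaging 0.591 CPM in Ethanol and 0.585 CPM in Control animals, with a 95% interval of -0.36 to 0.37.

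Among the sensors and their effector, Xbp1 was higher. Gene counts do not separate its spliced form, which encodes the active factor, from the unspliced form. It was at 62.7, 71.5 and 83.9 CPM in Ethanol animals and 58.3, 65.4 and 73.0 CPM in Control animals, with 4 Ethanol animals above every Control. The log2 fold change was 0.14 (SE 0.04, adjusted p = 0.0194) and the mean was higher in 6 of 6 runs. Without the fifth run it was 0.12 and no longer passed (adjusted p = 0.0823).

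The sensors themselves did not pass. Ern1, the IRE1 kinase and nuclease, was at 11.5, 14.8 and 16.02 CPM in Ethanol and 11.1, 13.7 and 16.04 CPM in Control animals (log2 fold change 0.11, SE 0.06, adjusted p = 0.220). Eif2ak3, the PERK kinase, was at 34.9, 40.2 and 43.5 CPM in Ethanol and 38.2, 41.2 and 45.9 CPM in Control animals (-0.03, SE 0.03, adjusted p = 0.581). Atf6 was at 30.8, 37.0 and 41.1 CPM in Ethanol and 33.3, 36.2 and 38.3 CPM in Control animals (0.03, SE 0.04, adjusted p = 0.607). The groups overlapped for all 3, with 5 Ethanol animals above every Control for Atf6 and 2 below every Control for Eif2ak3. Sensor activity is set by protein modification and is not measured by these counts.

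In the translocon, Ssr1 was lower. It encodes the alpha subunit of the TRAP complex, which helps nascent chains through the Sec61 channel. It was at 181, 195 and 212 CPM in Ethanol animals and 193, 209.5 and 224 CPM in Control animals, with 5 Ethanol animals below every Control. In no member did all Ethanol animals lie below every Control, a separation seen in 0.0507% of all genes. The log2 fold change of Ssr1 was -0.09 (SE 0.03, adjusted p = 0.0150), lower in 6 of 6 runs. It no longer passed without the 4 libraries poor in choroid plexus RNA (-0.09, adjusted p = 0.0670) or without run 1, run 3 or run 4 (0.0533 to 0.0648). The channel subunits Sec61a1 and Sec61b were at -0.02 (SE 0.02) and -0.01 (SE 0.04).

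**Figure D2:**
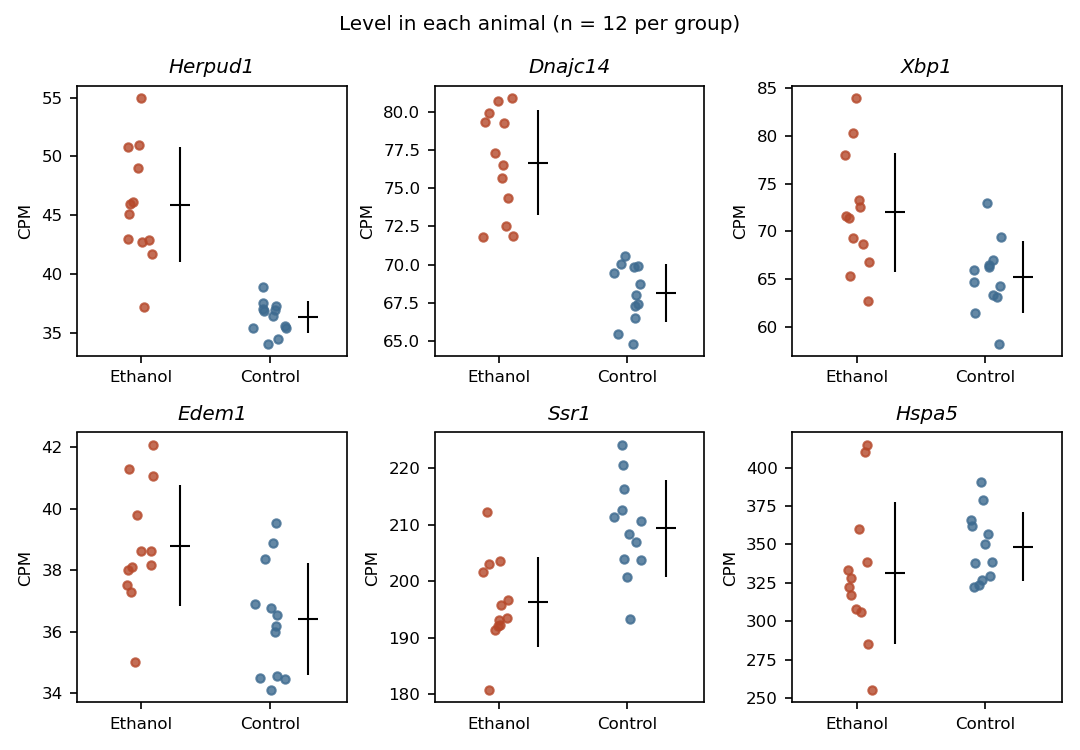
CPM of the 5 members past the test and of Hspa5 in each animal, Ethanol left and Control right, each with its own axis that does not start at 0; bars are mean and SD of 12 animals. The Dnajc14 groups do not overlap, 1 Ethanol animal of Herpud1 lies among the Controls, and the Hspa5 Ethanol animals extend from 255 to 415 CPM, beyond the Controls at both ends.

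The members varied more among Ethanol than among Control animals. The coefficient of variation (CV) was larger in the Ethanol group for 29 of 35 members (82.9%), against 62.6% of all genes tested and 76.6% of 158 other ER genes. In the ATF4 branch it was larger for all 11 genes, and among 38 cytosolic chaperones for 30, so the larger CV was not particular to the members. The median ratio of CVs, Ethanol over Control, was 1.43 for the members, 1.31 for the other ER genes and 1.12 for all genes. Hspa5 had a CV of 13.9% in Ethanol and 6.45% in Control animals, Calr 12.01% and 4.78%, Sdf2l1 20.9% and 9.64%, Dnajb11 8.05% and 3.09%, and Herpud1 10.6% and 3.78%. The 4 disulfide isomerases and the 6 luminal chaperones all had the larger CV in the Ethanol group.

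For the chaperones, the extreme Ethanol animals lay mainly in the first and second runs of animal numbers. For 13 of the 18 chaperones, co-chaperones and disulfide isomerases, the lowest Ethanol animal belonged to the first run and the highest to the second. The same was true of 1 of the other 17 members, Xbp1. This was not counted over all genes, and the 18 genes were measured in the same animals, so they are not separate observations. In the first run Hspa5 was at 255 and 285 CPM in the Ethanol animals, against 356 and 362 CPM in the Control animals. In the second run it was at 409.9 and 415 CPM in Ethanol and 379 and 390 CPM in Control animals. The Ethanol animals thus stood below both Controls in the first run and above both in the second.

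Calr followed the same order, at 449 and 448 CPM in Ethanol against 562 and 569.7 CPM in Control animals of the first run, and 684 and 639.7 CPM against 599 and 624 CPM in the second. For Sdf2l1 the mean log2 difference, Ethanol minus Control, was -0.59 in the first run and 0.20 in the second. Pdia4 differed by -0.33 in the first run and 0.10 in the second, and Hsp90b1 by -0.26 and 0.03. In runs 3 to 6 the differences of Hspa5, Ethanol minus Control, lay between -0.10 and 0.05. Over all 35 members the median difference per run was -0.09, 0.07, -0.01, -0.02, 0.03 and -0.01 from the first to the sixth, and over all genes each was within 0.01 of 0. Other lists also had a lower median in the first run than in the second, with -0.05 and 0.09 for 38 cytosolic chaperones and -0.06 and 0.05 for 35 other folding enzymes.

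**Figure D3:**
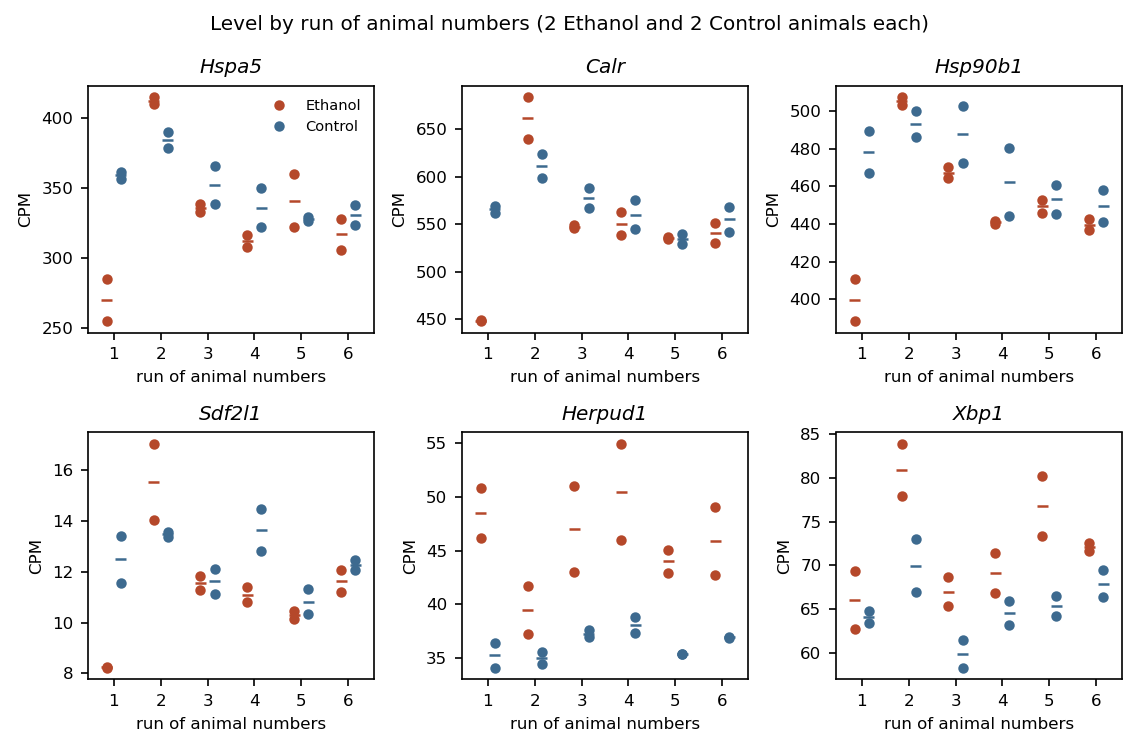
CPM of 6 members by run of animal numbers (x axis), with 2 Ethanol (left) and 2 Control (right) animals per run as points and their means as lines; the y axes do not start at 0. Hspa5, Calr, Hsp90b1 and Sdf2l1 are lowest in the Ethanol animals of run 1 and highest in those of run 2, while Herpud1 and Xbp1 have the higher Ethanol mean in each run.

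Whether the Ethanol effect differed between runs was tested in edgeR with an interaction of run and treatment (5 terms together, 12 residual degrees of freedom), which was added after the run values had been seen. At an adjusted p under 0.05, 0 of 35 members passed, against 0.0677% of all genes (12 genes). Pdia4 had the smallest value (adjusted p = 0.0513). At an unadjusted p under 0.05, 9 members (25.7%) passed, against 6.0% of all genes, and these were Pdia4, Pdia6, Calr, Hspa5, Sdf2l1, Pdia3, Hsp90b1, Hyou1 and Manf. At the same threshold, 4 of 11 genes of the ATF4 branch passed, so such a share was not particular to the members. Of 147 other ER genes without that branch 4 passed, and of 38 cytosolic chaperones 1. The edgeR interaction p of Hspa5 was 0.000592 before adjustment (adjusted p = 0.172). By contrast, Herpud1, Dnajc14, Xbp1, Edem1 and Ssr1 had unadjusted p of 0.320 to 0.964.

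Cell type markers also moved with the runs. The median log2 difference of 14 choroid plexus markers, Ethanol minus Control, was -2.80, 0.49, -0.85, -0.61, 2.08 and -0.19 from the first run to the sixth. In run 5, where it was highest, Hspa5 differed by 0.05. Summed choroid plexus markers ranged from 144 to 6097 CPM in Ethanol and from 130 to 6101 CPM in Control animals, and 0 of 14 passed the edgeR test of Ethanol against Control. For 6 erythroid markers the median difference was -2.14 in the first run and -0.59 in the second, for 10 endothelial markers -0.23 and -0.07, and for 10 pericyte and meningeal markers -0.34 and -0.24. The interaction had an unadjusted p under 0.05 for 5 of the 10 endothelial and 4 of the 10 pericyte and meningeal markers. In the first run, Ethanol X4568 was poor in choroid plexus RNA (Ttr 3.57 CPM) and Ethanol X4569 was not (2355 CPM), and 20 of the 35 members were lower in X4568. Between these animals Hspa5 was at 255 and 285 CPM, Hsp90b1 at 388 and 411 CPM, and Calr at 449 and 448 CPM. Without the 4 libraries poor in choroid plexus RNA the log2 fold change of Hspa5 was -0.04, and without the first run it was -0.01. The part of these cell types in the run differences was not tested.

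**Figure D4:**
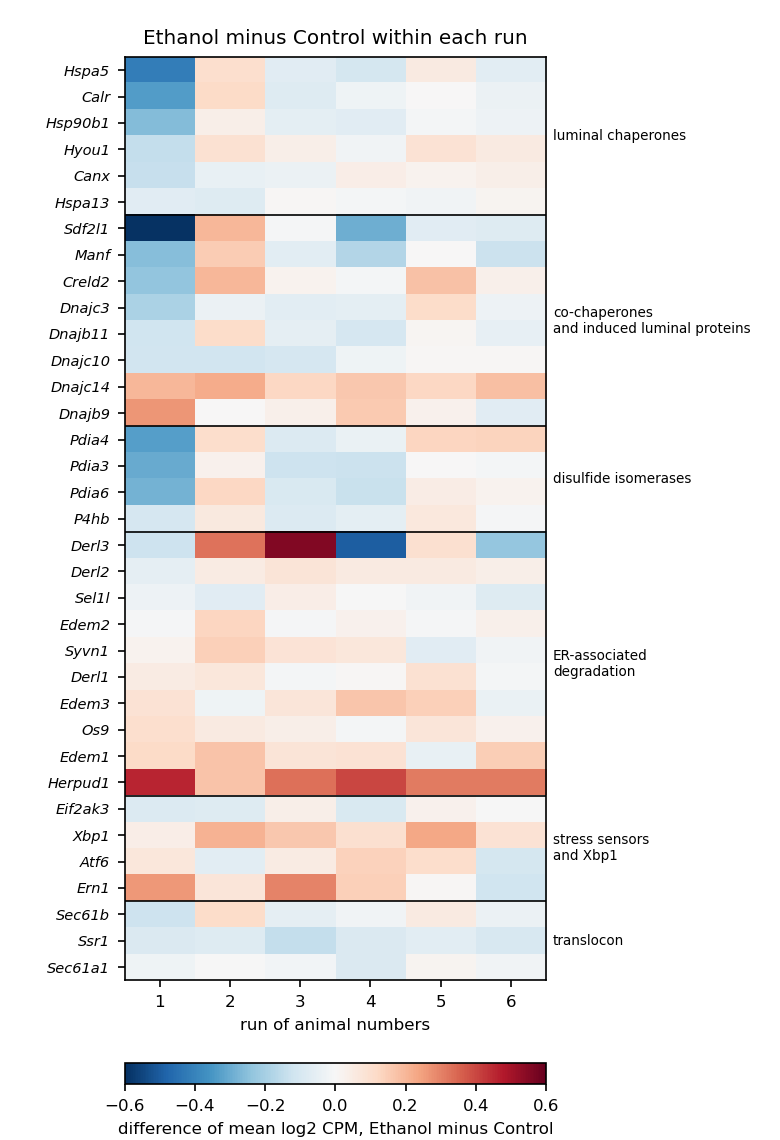
Difference of mean log2 CPM, Ethanol minus Control (colour), for each of the 35 members (rows, grouped by role) in each of the 6 runs (columns, 2 animals per group). Most chaperone and isomerase rows are blue in run 1 and red in run 2, Herpud1, Dnajc14 and Xbp1 are red throughout, and Ssr1 is blue throughout.

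Several chaperones varied with Hspa5 among animals of the same treatment. Pearson's r of log2 CPM with Hspa5 was computed for 34 genes within the 12 Ethanol and within the 12 Control animals, with permutation p adjusted over the 68 pairs, all within the same libraries. It passed for 12 genes in Ethanol animals, all with a positive r, and for 9 in Control animals, 7 positive and 2 negative (Syvn1 and Eif2ak3). An r of at least 0.8 was found for 10 of the 34 genes in Ethanol and 4 in Control animals, against 0.440% and 0.321% of all genes tested. Hsp90b1 had r of 0.96 in Ethanol and 0.90 in Control animals (Spearman's rho 0.88 and 0.92, adjusted permutation p of r 0.000408 and 0.00159). Calr had r of 0.92 and 0.93, with rho of 0.73 and 0.87 (adjusted permutation p 0.00258 and 0.000408).

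Pdia3 had r of 0.96 in Ethanol and 0.86 in Control animals (rho 0.89 in both, adjusted permutation p 0.000408 and 0.00516). Without the 2 animals farthest from the median of Hspa5, r of Hsp90b1, Calr and Pdia3 was 0.90, 0.86 and 0.91 in Ethanol and 0.90, 0.84 and 0.84 in Control animals. Within runs, after each run's mean was removed, r of Calr was 0.17 in Ethanol and 0.93 in Control animals, and that of Hsp90b1 was 0.67 and 0.90. Of the 12 genes that passed in Ethanol animals, 8 had an r between -0.23 and 0.32 within runs (Hyou1, Calr, Dnajb11, Sdf2l1, Manf, Creld2, P4hb and Pdia6). The other 4 had an r of at least 0.5 (Hsp90b1, Pdia3, Pdia4 and Xbp1). In Control animals 7 of 9 had an r within runs of at least 0.5 in size, and P4hb and Pdia4 did not. The r within runs rests on 2 animals of a group per run and was not tested. The permutations took no account of runs. Over the 34 genes, the median r within runs was 0.14 in Ethanol and 0.33 in Control animals.

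Herpud1, Xbp1 and Syvn1 differed from one another in their r with Hspa5. A negative r in both groups was not particular to Herpud1. Dnajc14, Edem1, Edem3, Ern1, Atf6 and Eif2ak3 had it too. Herpud1 had r of -0.64 with Hspa5 in Ethanol and -0.33 in Control animals (rho -0.52 and -0.31, adjusted permutation p 0.0690 and 0.394), and in Ethanol animals it was -0.37 without the 2 farthest and -0.08 within runs. Xbp1 had r of 0.81 in Ethanol animals (rho 0.64, adjusted permutation p 0.00699, 0.74 without the 2 farthest, 0.78 within runs) and 0.33 in Control animals (rho 0.22, adjusted permutation p 0.391, -0.23 without the 2 farthest, 0.77 within runs). Syvn1 had r of 0.30 in Ethanol (rho 0.09, adjusted permutation p 0.426) and -0.77 in Control animals (rho -0.90, adjusted permutation p 0.0107, -0.78 both without the 2 farthest and within runs). The difference of r between the groups was not tested.

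**Figure D5:**
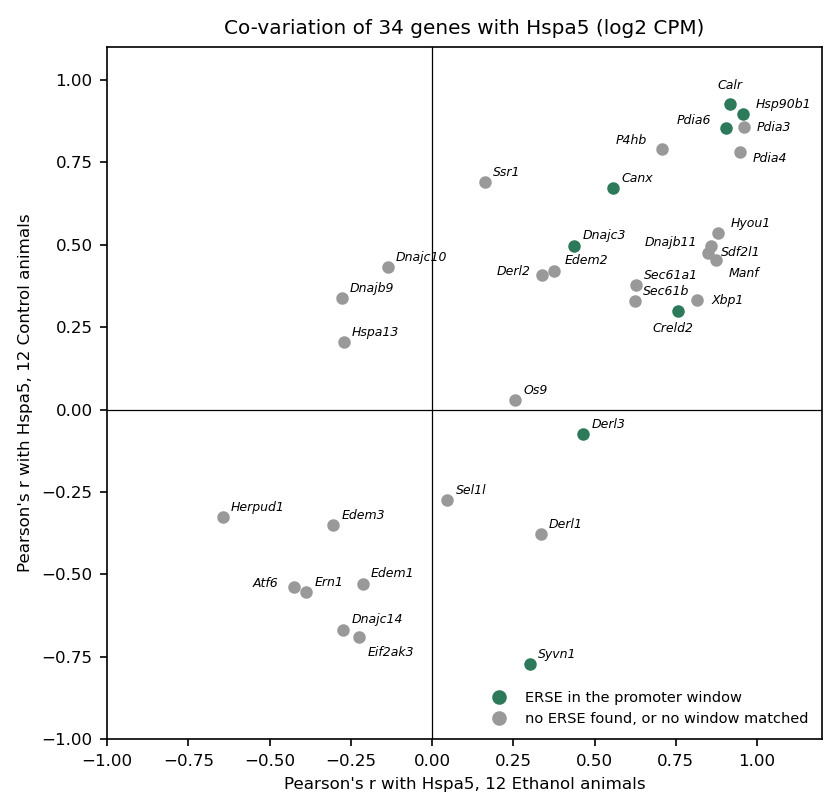
Pearson's r of log2 CPM with Hspa5 for 34 members, over 12 Ethanol animals (x axis) and 12 Control animals (y axis); green points have an ERSE in the promoter window. Hsp90b1, Calr, Pdia3, Pdia4 and Pdia6 lie at the upper right, Herpud1 has a negative r in both groups, and Syvn1 is positive in Ethanol and negative in Control animals.

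The ERSE sites shown above can be set beside these values. None of the 9 members with the ERSE passed the test of Ethanol against Control (their median log2 fold change was -0.04). Of the 20 with a window and no ERSE, 5 passed, Herpud1 with its ERSE-II site among them. Over all genes tested, 14.9% passed. The median difference of the 9 was -0.23 in the first run and 0.11 in the second, against -0.04 and 0.07 for the 20. Their median r with Hspa5, which is itself left out of it, was 0.66 in Ethanol and 0.58 in Control animals, against 0.21 and 0.34 for the 20. Pdia3 and Pdia4, with no ERSE letters in the window, had r of 0.96 and 0.95 with Hspa5 in Ethanol animals, and Syvn1, which has them, had 0.30. These are descriptions of small groups and were not tested.

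Other ER genes were counted from lists of related function. Of 158 tested, 21 were higher and 10 lower. The ATF4 branch accounted for much of this, with 10 of 11 genes higher and 1 lower and a median log2 fold change of 0.51. Without it, 11 were higher and 9 lower of 147 (13.6%), a share near the 14.9% of all genes. In the ATF4 branch, Ddit3 (CHOP, a stress-induced transcription factor) was at 11.1, 12.8 and 18.2 CPM in Ethanol and 9.09, 9.90 and 11.6 CPM in Control animals, with 9 of 12 Ethanol animals above every Control (log2 fold change 0.39, SE 0.07, adjusted p = 0.000320). Chac1, a glutathione-degrading enzyme, was at 4.21, 12.5 and 25.7 CPM in Ethanol and 3.03, 3.65 and 5.61 CPM in Control animals (1.83, SE 0.23, adjusted p = 3.05e-05).

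Cebpg, Atf3 and Sesn2, which encode ATF4-linked transcription factors and a growth inhibitor, were higher at 0.55 (SE 0.05), 0.86 (SE 0.12) and 0.50 (SE 0.08). Ppp1r15a (GADD34, the stress-induced phosphatase subunit that restores translation) was lower at -0.20 (SE 0.05, adjusted p = 0.00840; 0.0586 without the first run). Set beside the members, the run difference of Chac1 was 1.79, 0.16, 2.19, 2.64, 1.38 and 1.84 from the first run to the sixth, and that of Herpud1 was 0.46, 0.17, 0.33, 0.40, 0.31 and 0.31. Both were smallest in the second run, the run in which the Ethanol animals had their highest Hspa5. The median of the 11 genes of the ATF4 branch was also smallest there (0.11). Ddit3 was smallest in the sixth run instead, at 0.16 against 0.28 in the second. A relation of these genes to Hspa5 over the runs was not tested.

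For other lists of the secretory pathway and other chaperones, the share that passed can be set beside the 14.9% of all genes tested. In ER-to-Golgi traffic 5 of 29 genes were lower (Sec24d, Copb2, Sec31a, Kdelr3 and, named after its value was seen, Copb1) and 0 higher, against 5.8% lower over all genes. Sec24d, a cargo adaptor of COPII vesicles, fell by 0.19 on the log2 scale (SE 0.04, adjusted p = 0.00450). Among 18 other sensors and regulators, Nck1, Ppp1r15b, Nfe2l2 and Creb3 were higher and Wfs1 lower (27.8% past the test). Nck1, an adaptor tied to PERK and translation, was at 0.25 (SE 0.05, adjusted p = 0.00101). Ppp1r15b, the constitutive counterpart of Ppp1r15a, was at 0.14 (SE 0.03, adjusted p = 0.00375).

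Among 35 other folding enzymes, Mogs (the first glucosidase of N-glycan trimming), Dnajc1 and Ero1a were higher and Cdnf and Fkbp7 lower (14.3% past the test). Mogs was at 0.16 (SE 0.04, adjusted p = 0.00356). Of 28 other degradation genes Rnf5, Faf2 and Aup1 were higher and Nploc4 lower (14.3%), and of 8 ER-phagy receptors Calcoco1 was higher (12.5%). Of 29 translocation, signal peptidase and glycosylation genes, 0 passed in edgeR, with Ssr3, another TRAP subunit, at -0.06 (SE 0.03, adjusted p = 0.121) and Rpn2 at -0.06 (SE 0.03, adjusted p = 0.310). Of 38 cytosolic chaperones, Hsf1 and Chordc1 were higher and Hspa2 and Hsp90aa1 lower (10.5%). Of 16 mitochondrial chaperones and proteases, Grpel2, Dnaja3 and Hspa9 were higher (18.8%). Of the 32 genes outside the members that were named by rule and passed, 11 passed in every alternative fit and 21 missed in at least 1, and the genes of these ER lists given with values, other than Ppp1r15a, Ssr3 and Rpn2, are among the 11.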

How the data were processed

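Libraries were made from poly(A) RNA with a TruSeq kit and sequenced paired-end on a NextSeq 500. The authors aligned reads with STAR and quantified genes with Salmon in the nf-core/rnaseq pipeline, version 3.4 (GRCm39, per the labels). Versions of the single tools, the annotation and the use of strand in counting were not given in the sources used here. What was deposited is a table of estimated counts, of which 10.9% were not whole (tolerance 0.01), and they were rounded to whole numbers. The study's own methods then scaled by TMM and tested in limma.

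Each of the 24 columns was matched to its animal by label, and replicates are separate animals. Genes were filtered with filterByExpr, scaled by TMM and tested in edgeR 4.0.16 (R 4.3.3; quasi-likelihood, robust, 22 residual degrees of freedom), with Benjamini-Hochberg adjustment over 17736 genes. log2 CPM used a prior count of 2. Alternatives were DESeq2 1.42.0, limma 3.58.1 (trend and voom), library factors by RLE and by upper quartile, no filter on counts, a stricter one (1 CPM in 12 libraries), the run of animal numbers as a term, and each animal left out. Fits without the 4 libraries with Ttr under 4 log2 CPM, without each run and with the run interaction were chosen after seeing the data. Correlations used 100000 permutations (scipy 1.17.1). Exon lengths and overlaps came from GENCODE M21, and promoter sequences from RefSeq (GRCm38.p6). The test step was checked on simulated data with true folds from 0.5 to 2. It called 91.2%, 73.5% and 57.6% of changed genes at folds of 0.5, 0.667 and 0.8. At folds of 1.25, 1.5 and 2 it called 78.8%, 69.7% and 100%. Of unchanged genes it called 0.0627%. Smaller changes, as most members had, were not simulated. The members and gene lists were chosen with earlier results of these data known. By rule, all members are named, with per-animal values for those past the test, Hspa5, Xbp1, the sensors and Ddit3, and so are up to 4 genes per direction with the smallest p from each other list, or the 2 most abundant where none passed. A few more per-animal values were chosen after seeing the data.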

Additional observations from a re-analysis of the deposited data

How the results depend on the processing

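Across 39 alternative fits, Herpud1 and Dnajc14 passed in each (largest adjusted p in edgeR, limma or DESeq2 0.000481 and 0.000762), Xbp1 missed in 1, Ssr1 in 5 and Edem1 in 25. Members lower numbered 1 as reported, 0 with no filter, without the 4 low-Ttr libraries or without run 1, 3 or 4, 2 with the run as a term (Ssr1 and Pdia3), 3 without run 2 (Pdia3, Manf and Ssr1), and 1 to 2 with 1 animal left out. Over all genes, 1028 were lower as reported, 662 with no filter, 612 without the low-Ttr libraries, 616 without run 1, 612 without run 3, 499 without run 4, and 805 to 1438 with 1 animal left out (1268 to 1818 higher). Of the other ER genes, 10 were lower as reported, 4 with no filter, 4 without the low-Ttr libraries, 3 without run 1, 4 without run 4, 6 without run 6, and 7 to 16 with 1 animal left out (17 to 23 higher). Upper-quartile factors gave 1373 higher and 1396 lower over all genes, 49.6% higher against 61.0% as reported. Among members that did not pass, the log2 fold change took the other sign without run 1 for Calr (0.0036), Canx (0.0077), P4hb (0.0005), Pdia4 (0.0533), Pdia6 (0.0017) and Sec61b (0.0174), without run 2 for Hyou1 (-0.001), Creld2 (-0.0099) and Derl3 (-0.045), for Derl3 also with upper-quartile factors (-0.0093), the run term (-0.0014), without run 3 (-0.1282) and without run 5 (-0.0035), and for Sec61b without the low-Ttr libraries (0.0102). With 1 animal left out it spanned 0 for Hyou1 (-0.0040 to 0.0264), Creld2 (-0.0147 to 0.0542), Pdia4 (-0.0422 to 0.0017), Edem2 (-0.0047 to 0.0403), Derl3 (-0.0890 to 0.0902) and Sec61b (-0.0463 to 0.0025). Some of these fits had fewer animals, and the causes of the changes were not tested. Animal numbers pair no single animals across groups. With the run as a block, 1982 genes were higher and 1363 lower, and no call of a member was changed except that of Pdia3. Gene counts do not show splicing of Xbp1, protein levels or sensor activity, and age, sex and litter, not tied to animals, could not enter a fit. Derl3, under 1 CPM, limits no statement beyond its interval.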

Other observations

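Of the genes outside the members that hold the ERSE letters in their promoter window, 13 were tested. In edgeR 2 of them passed, where 14.9% of all genes did. Their median log2 difference, Ethanol minus Control, was -0.13 in the first run of animal numbers and -0.03 in the second.

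Grpel2, a nucleotide exchange factor of the mitochondrial Hsp70, was at 44.0, 46.3 and 50.6 CPM (lowest, median and highest) in Ethanol animals. In Control animals it was at 39.2, 41.6 and 43.9 CPM. The groups thus did not overlap, a separation found upward in 0.124% of all genes tested. Its log2 fold change was 0.16 (SE 0.03, adjusted p = 0.000253 in edgeR). Dnaja3, the mitochondrial J-domain partner of that Hsp70, was at 0.17 (SE 0.03, adjusted p = 0.000258), with 10 of 12 Ethanol animals above every Control. Hspa9, the mitochondrial Hsp70 itself, was at 0.07 (SE 0.03, adjusted p = 0.0474), a call that was lost in 27 of 39 alternative fits.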
